A study of Mus musculus with 2 samples.

Results

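Granzymes and the other lytic granule genes were followed in RNA sequencing of in vitro skewed Th1 cells, described as from wild-type and Chi3l1-deficient mice. The members were 10 listed gene symbols, the granzymes Gzma, Gzmb, Gzmc, Gzmd, Gzme, Gzmf and Gzmk, the pore protein gene Prf1, the granule scaffold gene Srgn and the granule membrane gene Nkg7, and all 10 were found among the 24421 symbols of the tables. There was 1 library of each genotype, so no difference between genotypes has a replicate check and no test was made. By the study's description, the wild-type group stands for Chi3l1+/+ and the knockout group for Chi3l1-/- in every cell, both on a C57BL/6J background. Per the study's methods, naïve CD4 T cells from young adult mice were stimulated in culture with antibodies against CD3 and CD28, and IL-12, IL-2 and an antibody against IL-4 were added to skew them. Mice of both sexes were used in the study, and which mice, of which sex and how many, gave cells to each of these libraries is not given in the sources used here.

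The targeted gene goes against the labels. Chi3l1, listed as Chil1, had 1 read in the library labelled WT and 103 reads in the library labelled KO, so each library is named here by its label and every direction below holds only as far as the labels do. The tables give log2 of a normalized count plus 1, and reads rebuilt from them summed to 70565985 in the library labelled WT and 62863105 in that labelled KO. Of the CD4 T cell markers Cd4, Cd3d, Cd3e, Cd3g and Cd28, all 5 were above 0 in both libraries, with summed normalized counts of 78843 and 69998. The Th1 markers, among them Tbx21 and Ifng, were above 0 for 6 of 6 genes in both libraries. Ifng, the Th1 cytokine gene, had log2 values of 11.72 in the library labelled WT and 13.04 in that labelled KO, from 3479 and 8715 reads. Of the 6 Th1 markers, 4 were higher in the library labelled KO and 2 were lower. The lower ones were Tbx21, with 16657 and 13876 reads, and Cxcr3, with 273 and 116. Fewer cells of a type and less RNA per cell cannot be told apart in bulk RNA.

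Cytotoxic lymphocytes kill by releasing lytic granules at the contact with a target cell. Perforin, encoded by Prf1, forms pores in the target membrane, and granzymes are serine proteases that enter the cell and cleave proteins that lead to its death. Granzyme B cuts after aspartate and activates caspases, granzymes A and K are tryptases, and the granzyme C to G group of the mouse arose by duplication beside Gzmb. Serglycin, encoded by Srgn, is the proteoglycan that holds granzymes inside the granule. NKG7 is a granule membrane protein of cytotoxic and Th1 cells. Th1 cells carry part of this machinery, with granzyme B as a known product of activated T cells.

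Because the authors counted unique and multiple alignments, near-identical granzymes can hold the same reads. On chromosome 14, Gzmb, Gzmc, Gzmd, Gzme and Gzmf lie on the minus strand, with their 5′ ends within 142 kb. The 100-base stretch of coding sequence in which Gzmd and Gzme are closest is shown, since it is as long as a read, with the matching stretch of the other members below it. Each stretch lies in exon 4 of 5 and is written 5′ to 3′, and capitals mark bases that differ from Gzmd (GRCm38, minus strand).
Gzmd, chr14:56130357-56130456: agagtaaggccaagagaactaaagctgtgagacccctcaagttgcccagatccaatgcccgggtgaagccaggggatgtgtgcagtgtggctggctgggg
Gzme, chr14:56118408-56118507: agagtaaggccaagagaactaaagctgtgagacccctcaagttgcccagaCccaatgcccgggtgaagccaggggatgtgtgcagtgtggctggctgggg
Gzmf, chr14:56206074-56206173: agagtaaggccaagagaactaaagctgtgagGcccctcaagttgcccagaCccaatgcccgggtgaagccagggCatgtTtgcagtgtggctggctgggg
Gzmc, chr14:56232396-56232495: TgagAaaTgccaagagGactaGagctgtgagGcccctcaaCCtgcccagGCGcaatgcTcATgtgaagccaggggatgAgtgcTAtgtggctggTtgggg
Gzmb, chr14:56260339-56260438: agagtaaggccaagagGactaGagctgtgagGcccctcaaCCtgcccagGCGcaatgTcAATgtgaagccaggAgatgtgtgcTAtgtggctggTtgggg
In this stretch Gzme differed from Gzmd at 1 base, Gzmf at 4, Gzmc at 18 and Gzmb at 16.

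Over the whole coding sequence, Gzmd and Gzme were 93.3% identical, Gzme and Gzmf 85.3%, Gzmb and Gzmc 76.2%, and Gzmb and Gzmd 65.3%. Gzma and Gzmk, on chromosome 13, were 51.9% identical. Of all 100-base windows of a transcript, those found with at most 2 mismatches in another of the 10 mouse granzyme genes made up 29.1% for Gzmd, 22.0% for Gzme, 6.83% for Gzmf and 3.40% for Gzmc. No such window was found for Gzmb, Gzma, Gzmk, Prf1, Srgn or Nkg7. Without a mismatch, the share was 0.231% for Gzmd, all of it shared with Gzmg. Gzmd and Gzme thus shared no window without a mismatch, and the alignments themselves were not examined here. How reads were split between Gzmd and Gzme may be uncertain where mismatches were allowed. A read pair is ambiguous only where both of its ends are. Gzmf also overlaps the gene Gm4022 on the other strand over 151 exonic bases, and whether strand was used in counting is not given in the sources used here.

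Levels of different genes were compared as normalized counts per kb of the longest transcript. Gzmb stood highest among the members, with 19068 normalized counts per kb in the library labelled WT and 19686 in that labelled KO. It ranked 238 and 213 among the 23376 genes with a known transcript length, near the top 1%. Srgn followed with 4355 and 4410 per kb (rank 1039 and 955), and Nkg7 with 3339 and 2779 per kb (rank 1319 and 1431). These 3 genes form a high group in both libraries, and the next member lay far below them. Gzmc had 183 and 156 normalized counts per kb (rank 7481 and 7900). Prf1 had 88.6 and 87.7 per kb (rank 9032 and 9085). Perforin mRNA was thus low beside that of its partner granzyme B, which exceeded it 215-fold per kb in the library labelled WT and 224-fold in that labelled KO.

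The low end of the order held the remaining granzymes. Gzma had 23.3 and 50.5 normalized counts per kb, Gzmd 22.2 and 2.97, and Gzmf 5.26 and 8.43. Gzme had 13.8 per kb in the library labelled WT and was listed at 0 in that labelled KO. Gzmk was listed at 0 in both libraries. A listed 0 need not mean that a transcript is absent, since Vamp7, a gene of most cells, was listed at 0 in both libraries too.
From the highest member down to Gzma, each neighbour pair in the library labelled WT differed beyond read sampling, the closest being Srgn over Nkg7 with a ratio of 1.30 (95% exact binomial interval from 1.25 to 1.36). Gzma over Gzmd had a ratio of 1.06 per kb with an interval from 0.567 to 1.98, Gzmd over Gzme 1.61 from 0.775 to 3.47, and Gzme over Gzmf 2.61 from 0.873 to 9.35. These 3 pairs were not separable by their reads. In the library labelled KO, Gzmf over Gzmd had a ratio of 2.80 with an interval from 0.671 to 16.4 and was not separable either. All such intervals hold counting error only, since reads without molecular identifiers are not independent molecules.

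**Figure D1:**
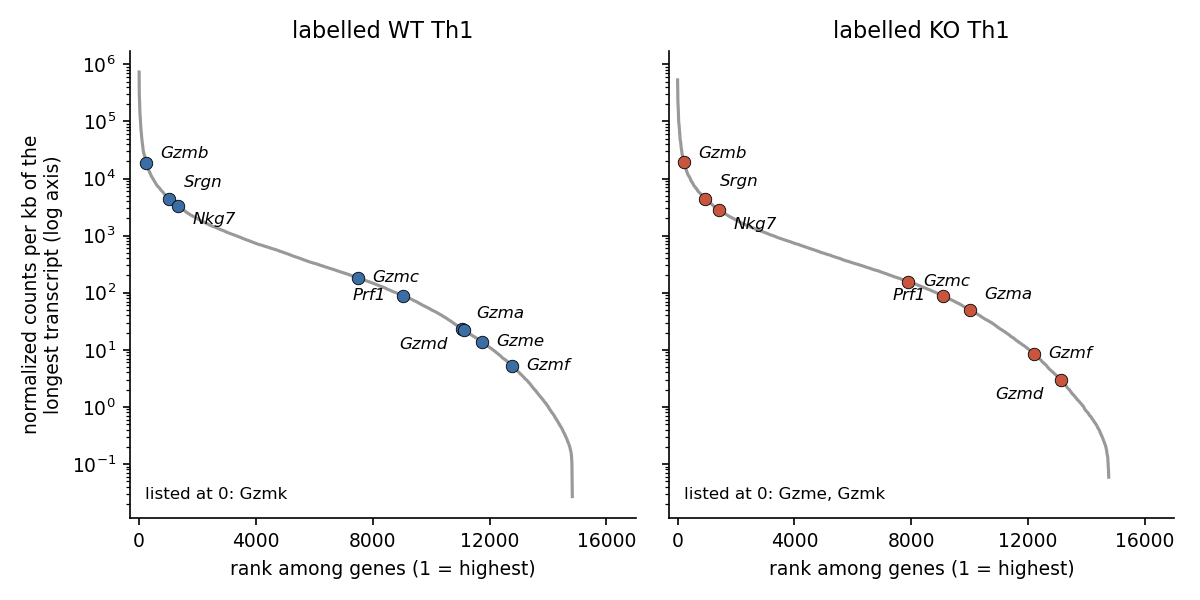
Normalized counts per kb of the longest transcript (log axis) against rank for all genes above 0, in the library labelled WT Th1 (left) and that labelled KO Th1 (right), with the members as points. Gzmb, Srgn and Nkg7 lie at the steep upper end in both libraries, and Prf1 with 88.6 and 87.7 lies in the middle of the curve.

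Among all 10 mouse granzyme genes, Gzmb made up 98.6% of the summed normalized counts per kb in the library labelled WT and 98.5% in that labelled KO. Gzmc was the next, with 0.948% and 0.781%. The share of Gzma was 0.121% and 0.253%. Granzyme mRNA in both cultures was thus almost wholly granzyme B, and all 10 granzyme genes together took 0.0404% and 0.0469% of all normalized counts. The genes whose pair of values lay nearest to that of Gzmb, by the distance of the deposited log2 values over the 2 libraries, were Srsf10, Vegfa and Fyn.

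The study compared Chi3l1-deficient with wild-type Th1 cells to ask how Chi3l1 acts on interferon gamma signalling. With 1 library of each label, and Chil1 reads that go against the labels, dependence on Chi3l1 was not tested here. For the main components of the granule, the values of the libraries lay close together. Gzmb (chromosome 14, 56258838 to 56262260, minus strand) had a deposited log2 value of 14.74 in the library labelled WT and 14.79 in that labelled KO, from 28229 and 29174 rebuilt reads. Its log2 fold change, KO minus WT, was 0.05, and read sampling alone (95% exact binomial) gives 0.02 to 0.07. Of the 334 genes within 0.5 log2 units of its mean level, the middle 90% had log2 fold changes from -0.66 to 0.27, and Gzmb lay inside this range. Prf1 (chromosome 10, 61297833 to 61304680, plus strand) had 7.78 and 7.77, from 226 and 224 reads. The log2 fold change of Prf1 was -0.01, and its interval ran from -0.29 to 0.26, so a change of the perforin mRNA up to these bounds could not be seen at this depth.

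The scaffold gene lay as close between the libraries, and the membrane gene less so. Srgn (chromosome 10, 62493833 to 62527451, minus strand) had log2 values of 12.88 and 12.90, from 7754 and 7860 reads, a log2 fold change of 0.02 (interval from -0.03 to 0.06). Nkg7 (chromosome 7, 43437073 to 43438249, plus strand) had 11.52 in the library labelled WT and 11.26 in that labelled KO, from 3033 and 2526 reads. The log2 fold change was -0.27 (interval -0.34 to -0.19, which leaves out 0) and lay within the middle 90% of the 1595 genes of similar level, from -0.55 to 0.51. Of the granule components with many reads, only Nkg7 stood lower in the library labelled KO beyond read sampling by the deposited values (linear ratio 0.832). The log2 fold change of Nkg7 was -0.16 with the trend of fold change with GC content removed and -0.15 when scaled to Actb. Both values lie outside its interval. The small differences of Gzmb, Prf1 and Srgn turned to -0.07, 0.09 and -0.17 when the trend of fold change with GC content was removed, so no direction is given for them.

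The tryptase gene Gzma (chromosome 13, 113093825 to 113100981, minus strand) had a log2 value of 4.60 in the library labelled WT and 5.68 in that labelled KO, from 24 and 52 reads. Its log2 fold change was 1.08, and the log2 ratio of reads had an interval from 0.39 to 1.88, which leaves out 0. The middle 90% of the 826 genes of similar level ran from -1.69 to 1.42 and held this value. With the trend of fold change with GC content removed, the log2 fold change of Gzma was 0.89, below 2-fold. Gzmk (chromosome 13, 113171608 to 113225908, minus strand), the tryptase gene beside it, was listed at 0 in both libraries and gives no fold.

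The granzymes that lie past Gzmb on chromosome 14 had few reads, and not all were separable from no change. Gzmc (56231441 to 56234656) had log2 values of 7.37 and 7.13, from 169 and 144 reads, and a log2 fold change of -0.23, whose interval from -0.56 to 0.10 holds 0. Gzmf (56205263 to 56211417) had 2.54 and 3.13, from 5 and 8 reads, and its interval from -1.12 to 2.63 covers either direction. Gzmd (56129556 to 56132608) had 4.48 in the library labelled WT and 1.95 in that labelled KO, from 22 and 3 reads. The log2 fold change of Gzmd was -2.54, and the log2 ratio of reads had an interval from -5.26 to -1.14. The middle 90% of the 704 genes of similar level ran from -2.33 to 1.93, so Gzmd lay just outside it. Gzme (56117626 to 56120625) had 3.77, from 13 reads, in the library labelled WT and was listed at 0 in that labelled KO. The difference of the deposited values of Gzme, -3.77, depends on the 1 added before the log and is no estimate of a fold. Gzmd and Gzme were the members at least 2-fold lower in the library labelled KO, and they are also the pair most alike in sequence.

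To set aside how shared reads were split, the normalized counts of Gzmc, Gzmd, Gzme, Gzmf, Gzmg and Gzmn were summed. The sum was 205 in the library labelled WT and 150.1 in that labelled KO, a log2 fold change of -0.45 (interval from -0.76 to -0.14). Gzmc held most of this sum. Without it, an alternative chosen after seeing the data, the sum was 40.8 and 10.6, a log2 fold change of -1.94 (interval from -3.04 to -0.95). A read counted on more than 1 gene enters these sums more than once.

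**Figure D2:**
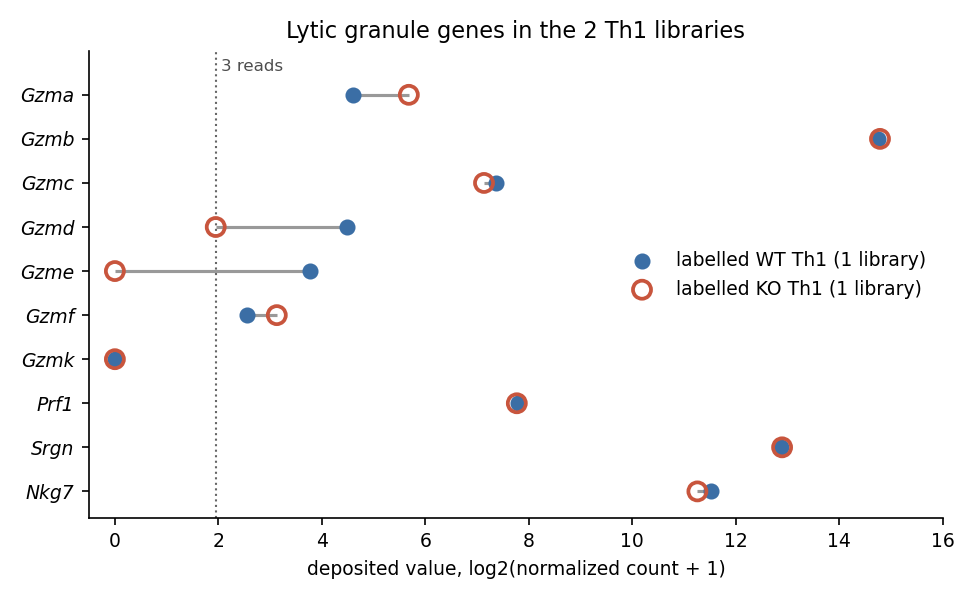
Deposited log2 values of the 10 members in the library labelled WT Th1 (filled) and that labelled KO Th1 (open), 1 library each, with a dotted line at the value of 3 reads. The points of Gzmb, Prf1 and Srgn coincide, Gzma is higher in the library labelled KO, and Gzmd and Gzme are higher in that labelled WT.

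In all, 1 of the 10 members (Gzma) was at least 2-fold higher in the library labelled KO, against 4.7% of all 24421 genes, and 2 members (Gzmd and Gzme) were at least 2-fold lower, against 5.81% of all genes. Few members make these shares coarse, and each of the 3 genes had at most 52 reads in a library. Of the 10 members, 8 had a normalized count of at least 10 in at least one library and 6 in both. Gzmk and Gzmf were below that level in both. At 1.5-fold, 2 members (Gzma and Gzmf) were higher, against 9.6% of all genes, and 2 (Gzmd and Gzme) were lower, against 11.4%. At 3-fold 0 members were higher, against 2.35%, and the same 2 were lower, against 3%. Of the 6 members at a normalized count of 10 or more in both libraries, 1 (Gzma) was higher past 2-fold, against 2.46% of such genes, and 0 were lower, against 3%, but asking this of both libraries removes Gzmd and Gzme by their low values in the library labelled KO. The log2 fold changes of the 10 members ran from -3.77 to 1.08 with a median of -0.01, and the median over all genes was 0. By sign alone, 4 members were higher, 5 were lower and Gzmk was equal. Of all 24421 genes, 7748 were higher, 8395 lower and 8278 equal. The member count includes Gzmb, Prf1 and Srgn, whose signs changed with the GC trend removed. It also includes Gzmc and Gzmf, whose intervals hold 0.

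**Figure D3:**
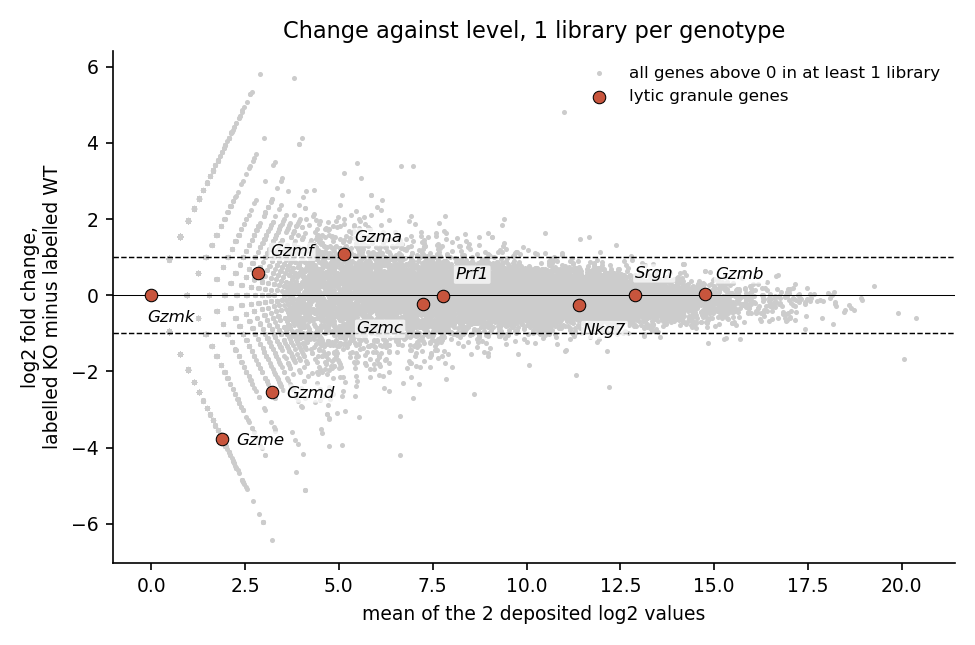
Log2 fold change, library labelled KO minus library labelled WT, against the mean of the deposited log2 values, for all genes above 0 in at least one library (grey) and the 10 members (red), with dashed lines at 2-fold. Members at high level lie near 0, and Gzmd at -2.54 and Gzme, whose -3.77 is set against a listed 0, lie at the low end, where the grey points fan out.

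Among granzymes outside the listed members, Gzmm, which encodes granzyme M, a protease that cuts after methionine or leucine, was higher in the library labelled KO. Gzmm (chromosome 10, 79689020 to 79695261, plus strand) had log2 values of 4.76 and 6.64, from 27 and 102 reads. The log2 fold change of Gzmm was 1.88 (interval from 1.29 to 2.59), and the middle 90% of the 889 genes of similar level ran from -1.36 to 1.37. With the trend of fold change with GC content removed, the log2 fold change of Gzmm was 2.09. Gzmm thus stood outside the range of its neighbours in level, while the member Gzma stood inside. Gzmg had 2 reads in the library labelled WT and was listed at 0 in that labelled KO, and Gzmn was listed at 0 in both.

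Granzyme A and granzyme M are also products of NK and CD8 T cells, and markers of these cells were read beside them. Of the NK cell markers, 3 of 7 were above 0 in the library labelled WT and 6 of 7 in that labelled KO, with summed normalized counts of 68.7 and 72.3. Of the 7, 4 were higher and 2 lower in the library labelled KO. Ncr1, an NK receptor gene, was listed at 0 in the library labelled WT and had 6 reads in that labelled KO. Klra8 had 11 and 39 reads. Klrb1c, which encodes NK1.1, had 17 and 9, Klra7 had 43 and 18, and Klra4 was listed at 0 in both. The CD8 T cell markers Cd8a and Cd8b1 summed to 812 and 807 normalized counts, with Cd8a higher and Cd8b1 lower in the library labelled KO. The part of these cells in the values of Gzma and Gzmm was not tested.

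Of 7 mast cell, basophil and neutrophil proteases listed from the chromosome 14 cluster, Mcpt8, Ctsg and Cma1 had fewer reads in the library labelled KO, as had Gzmd and Gzme. Mcpt8, a basophil protease, had log2 values of 6.38 and 3.86, from 85 and 14 reads, and a log2 fold change of -2.52 (interval from -3.53 to -1.78). Ctsg, cathepsin G of neutrophils, had 3.76 and 1.95, from 13 and 3 reads, and Cma1, a mast cell chymase, had 7 reads in the library labelled WT and was listed at 0 in that labelled KO. The other mast cell proteases, Mcpt1, Mcpt2, Mcpt4 and Mcpt9, were listed at 0 in both libraries. Of these 10 genes, Gzmg, Gzmm and Gzmn included, 3 had a normalized count of at least 10 in at least one library, and of those 1 (Gzmm) was higher and 2 (Mcpt8 and Ctsg) were lower past 2-fold, against 4.2% and 5.63% of all genes at that level. Ctsg reached that level through the library labelled WT alone. Counted from the 5′ end of Gzmb, Gzmd lies 129.7 kb away, Gzme 141.6 kb, Ctsg 159.7 kb and Mcpt8 177.0 kb, and these 4 are neighbours among the listed genes. Cma1 lies apart at 317.6 kb, past the 4 listed at 0, while Gzmc at 27.6 kb and Gzmf at 50.8 kb were not separable from no change by their reads.

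The neutrophil list and the mast cell and basophil list, which hold some of these genes, were lower in sum in the library labelled KO. The 8 neutrophil markers, Ctsg among them, summed to 104 normalized counts in the library labelled WT and 8.56 in that labelled KO, 8 of 8 being lower, and 8 and 3 of them were above 0. Elane and Ngp were listed at 0 in the library labelled KO. The mast cell and basophil markers, Mcpt8 and Cma1 among them, summed to 103.7 and 18.3, with 4 of 8 and 2 of 8 above 0. Most of that sum is Mcpt8 itself. Of the list's genes outside the cluster, Cpa3 had 11 and 5 reads, Fcer1a had 4 reads in the library labelled WT and was listed at 0 in that labelled KO, and Ms4a2, Tpsb2 and Tpsab1 were listed at 0 in both. The part of these cells in the values of Gzmd and Gzme was not tested. For the remaining lists, macrophage markers summed to 517 and 460, with Adgre1 and Marco listed at 0 in both. Most of the macrophage sum is Cd68, with 402 and 299 reads, while Csf1r had 97 and 174 and Lyz2 had 34 and 2. B cell markers summed to 939 and 1731, and plasmacytoid dendritic cell markers to 12.6 and 6.73 with Siglech listed at 0 in both. Of the gamma delta T cell markers, Sox13 alone was in the tables, with 21 and 33 reads.

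**Figure D4:**
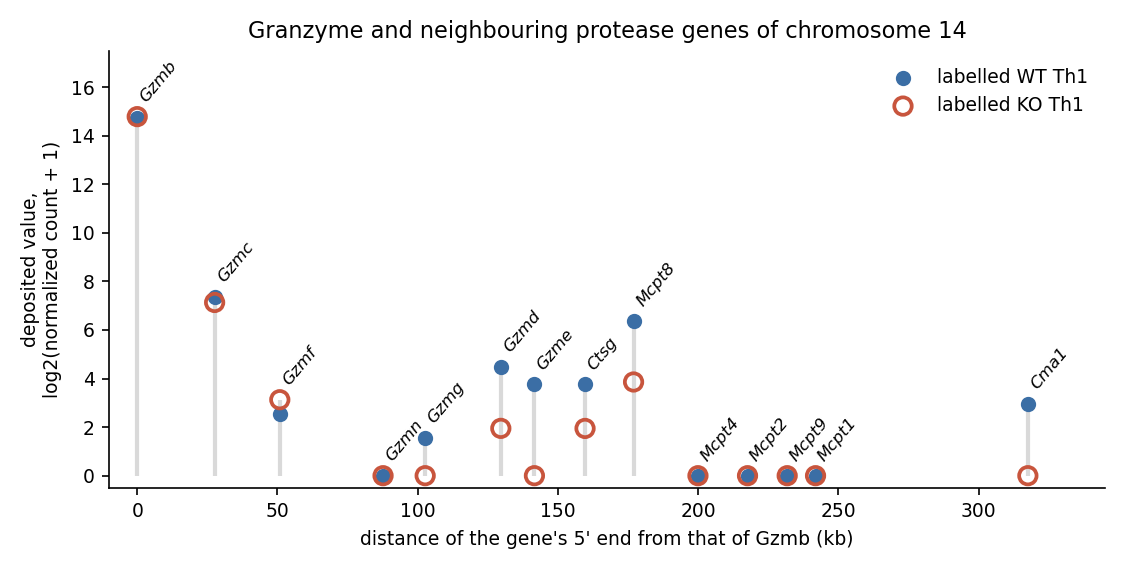
Deposited log2 values of the granzyme genes and the listed protease genes of chromosome 14 against the distance of their 5′ ends from that of Gzmb (kb), for the library labelled WT Th1 (filled) and that labelled KO Th1 (open). From Gzmd at 129.7 kb to Mcpt8 at 177.0 kb, 4 listed genes in a row are higher in the library labelled WT, and Gzmg beside them rests on 2 reads.

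Granule genes outside the members were read from lists by role, over genes with a normalized count of at least 10 in at least one library. Of all 13724 such genes, 4.2% were at least 2-fold higher and 5.63% at least 2-fold lower in the library labelled KO, with a median log2 fold change of -0.01. Of 14 genes of granule maturation, none was higher past 2-fold and 1 was lower, with a median of 0.06. The one that was lower is Cd63, a membrane protein of lysosomes and of mast cell and basophil granules. Its log2 values were 5.86 and 3.12, from 59 and 8 reads, and it reached the level asked through the library labelled WT alone. The mast cell and basophil markers given above were also lower in sum, most of it Mcpt8. The part of these cells in the value of Cd63 was not tested. Ctsd and Lamp1, a lysosomal protease and the lysosomal membrane protein that marks granule release, were the highest of this list per kb, with log2 fold changes of -0.18 and 0.14. Ctsl, another lysosomal protease, had the largest positive value, 0.87, from 17 and 32 reads.

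Activation of granzymes inside the granule is done by cathepsin C, and cystatin F, encoded by Cst7, restrains that enzyme. These 2 genes were singled out after their values were seen. Ctsc had log2 values of 10.66 and 11.12, a log2 fold change of 0.45 (interval from 0.36 to 0.54). Cst7 had 10.93 and 9.99, a log2 fold change of -0.94 (interval from -1.05 to -0.83). The middle 90% of the 1854 genes at the level of Cst7 ran from -0.60 to 0.54 and did not hold its value. Ctsc lay inside the range of the 1760 genes at its level, from -0.60 to 0.52, and was 0.23 with the GC trend removed. Both differences exceeded read sampling and were below 2-fold. Cst7 did not stand alone in this. Other listed genes below 2-fold, among them Sytl1, Stx11, Serpinb6a and Prdm1, also lay outside the middle 90% of genes at their levels. With the GC trend removed, Sytl1 (-0.56) and Prdm1 (0.68) fell inside these ranges of deposited values. Stx11 (0.56), Serpinb6a (-1.21) and Cst7 (-0.94) did not.

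Of 16 genes of granule release, none passed 2-fold in either direction, and the median log2 fold change was -0.20. Coro1a and Was, which act on the actin cytoskeleton at the contact zone, were the highest per kb, with log2 fold changes of -0.28 and -0.36. With the GC trend removed, these values were 0.06 and -0.15. Stx11, a syntaxin needed for granule fusion, had 11.08 and 11.77, a log2 fold change of 0.69. Sytl1, a synaptotagmin-like partner of Rab27a, had 10.19 and 9.28, a log2 fold change of -0.91. Vamp7, listed at 0, was left out of this count.

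Among 8 inhibitors, none passed 2-fold, with a median of -0.10. Serpinb6a, an intracellular serpin, came closest, with log2 values of 9.73 and 8.76 and a log2 fold change of -0.98 (interval from -1.15 to -0.81), and with the GC trend removed it was -1.21, past 2-fold. Serpinb6b had 0.29, and Cst3 and Cstb, the cystatins highest per kb, had 0.24 and -0.05. Of 17 transcriptional regulators, none passed 2-fold, and the median was -0.03. Stat5b, which carries IL-2 signals, and Tcf7, a factor of naïve and memory T cells, were highest per kb, with log2 fold changes of -0.03 and -0.61. Prdm1, which encodes Blimp-1, had the largest positive value, 0.80, with 8.49 and 9.30.

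Of 13 cytotoxic companion genes, 2 were at least 2-fold higher and 1 was at least 2-fold lower in the library labelled KO, with a median of 0.28. Klrk1, the activating receptor NKG2D, had log2 values of 6.40 and 7.52 from 86 and 188 reads, a log2 fold change of 1.12 (interval from 0.75 to 1.51), which became 0.89, below 2-fold, with the GC trend removed. Xcl1, a chemokine that draws dendritic cells, had 3.66 and 5.24 from 12 and 38 reads, a log2 fold change of 1.58. Ccl5, a chemokine stored in cytotoxic cells, went the other way, with 9.37 and 8.01 from 681 and 266 reads, a log2 fold change of -1.36 (interval from -1.57 to -1.15). The chemokines Ccl3 and Ccl4 were highest per kb in this list, with 0.13 and -0.29. Klrk1 is also a gene of NK and CD8 T cells, and the part of these cells in its value was not tested.

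**Figure D5:**
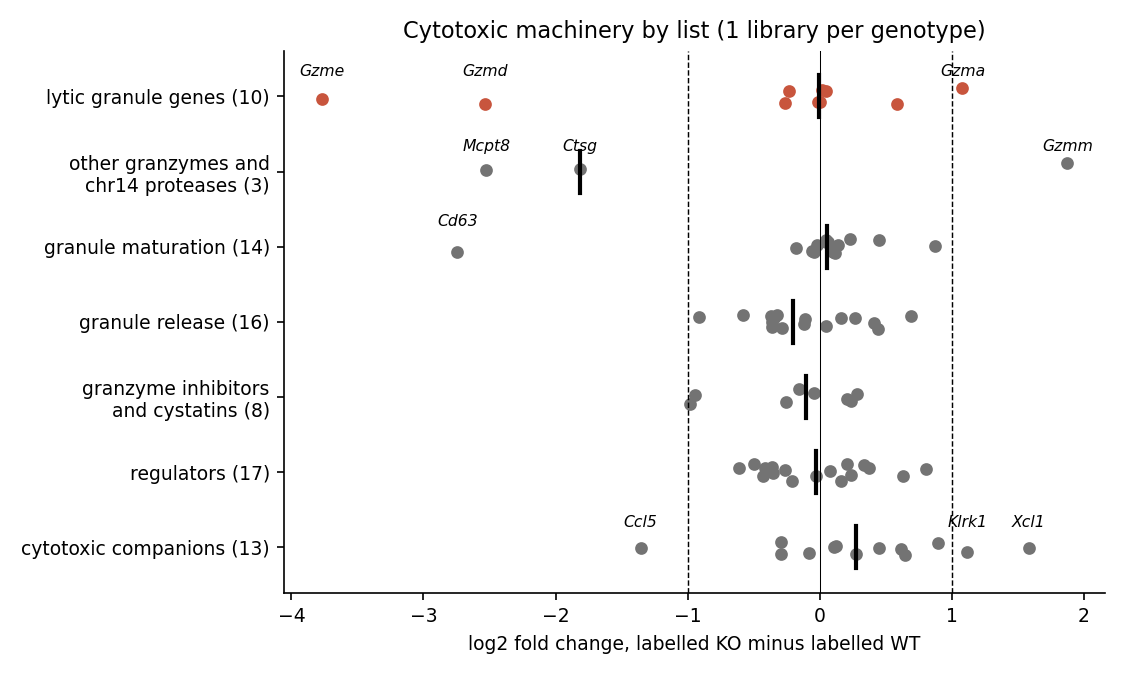
Log2 fold change, library labelled KO minus library labelled WT, of the 10 members (red) and of the genes of each list with a normalized count of at least 10 in at least one library (grey), with the list median as a bar, dashed lines at 2-fold and the number of genes in brackets. Of the 10 members, 3 lie past 2-fold, against 10.5% of all genes. The 3 genes of the other granzymes and chromosome 14 proteases all do, against 9.84% of genes at that level. The genes of granule release, inhibitors and regulators all lie inside the dashed lines.

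The promoters of the cluster genes were read for letters bound by factors that Th1 cells express, since Gzmb and its neighbours differ so much in level. Searched on both strands were TGTGGT, the core of the Runx site, and AGGTGT, a T-box half-site, in the 200 bases before the start in RefSeq (GRCm38.p6). For members and the other granzymes, the window was moved to the GENCODE start where that lay slightly further upstream. The windows of all other genes were not moved. Capitals mark either motif, and the motifs did not overlap in the sequences shown, which are those of the member highest in level, of the next in the cluster, and of the one with the largest difference among genes above 0 in both libraries.
Gzmb, chr14:56262335-56262534: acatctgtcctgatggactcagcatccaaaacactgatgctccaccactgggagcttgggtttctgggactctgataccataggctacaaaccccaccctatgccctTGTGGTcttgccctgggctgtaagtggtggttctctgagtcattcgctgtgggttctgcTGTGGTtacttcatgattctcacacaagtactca
Gzmc, chr14:56234658-56234857: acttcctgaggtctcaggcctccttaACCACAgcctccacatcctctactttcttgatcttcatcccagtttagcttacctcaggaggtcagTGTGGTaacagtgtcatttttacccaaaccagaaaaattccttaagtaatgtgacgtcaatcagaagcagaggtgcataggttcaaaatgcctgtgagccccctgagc
Gzmd, chr14:56132609-56132808: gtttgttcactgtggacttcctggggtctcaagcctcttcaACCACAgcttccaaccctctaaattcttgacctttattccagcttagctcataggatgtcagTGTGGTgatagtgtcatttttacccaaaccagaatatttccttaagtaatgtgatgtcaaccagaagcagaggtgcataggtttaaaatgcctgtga
The Runx core occurred 2 times in each of Gzmb, Gzmc, Gzmd, Gzme and Gzmf, whose levels ran from the highest to among the lowest of the members. It was present for 8 of the 10 members and in 11.2% of all 32851 promoter windows, and it was not found for Srgn and Gzmk. The T-box half-site was present for 4 members, Gzma, Gzmk, Prf1 and Nkg7, and in 9.32% of all windows. That of Nkg7 lies past the start of the gene in GENCODE. The cluster genes resemble each other in these windows, so their counts are not independent.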

How the data were processed

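Polyadenylated RNA libraries were made by the authors with the SENSE kit and sequenced from both ends, 1 library per genotype. Reads were mapped with TopHat to mm10 (which is GRCm38) per the labels, and unique and multiple alignments were counted for edgeR after a global normalization. The versions of TopHat and edgeR and the gene annotation are not given in the sources used here. The deposited tables hold log2 values, taken here to be those of normalized counts after adding 1. After undoing this, low values fall in even steps of 0.970 in the library labelled WT and 0.969 in that labelled KO, and 99.98% of values below 60 were whole multiples within 0.1, from which reads were rebuilt.

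The members and lists were chosen with earlier results of these data known. Log2 fold changes are differences of deposited values, and the 1 added before the log shrinks those of low genes. Intervals are 95% exact binomial (Clopper-Pearson) intervals of read ratios and cover counting error only. A gene past 2-fold is called with no test. Transcript lengths and coordinates came from GENCODE M21, which held 95.7% of the symbols, and promoter windows from RefSeq, moved as given above. Named were the members, the other granzymes, Chil1, list genes past 2-fold with a normalized count of at least 10, the 2 list genes highest per kb in the library labelled WT, the extreme changes per list, and the 3 genes nearest to Gzmb. Listed genes not in the tables were not analysed here. Scripts were tested on simulated data and used Python 3.11.15 with scipy 1.17.1, numpy 2.4.6, matplotlib 3.10.9 and pandas 2.3.3. Alternatives were other scalings, pseudocounts, thresholds, filters, lengths, mismatch limits and the removal of the GC trend (by subtracting, in each of 20 GC bins, the median of the 8579 genes reaching log2 8 in both libraries).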

Additional observations from a re-analysis of the deposited data

How the results depend on the processing

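No paired analysis was possible because each group has 1 library. The log2 fold changes of the members other than Gzmk were recomputed 53 times under 6 alternatives, and 49 kept their direction. The others were small differences, of Gzmb (-0.07), Srgn (-0.17) and Prf1 (0.09) with the GC trend removed and of Prf1 (0.10) when scaled to Actb, which moves the median of genes reaching log2 8 in both libraries from -0.01 to 0.10. Gzmb ranged from -0.07 to 0.21, Gzma from 0.89 to 1.19, Gzmd from -2.90 to -2.44 and Gzme from -6.99 to -3.71, since it is listed at 0 in one library and follows the pseudocount. The number of members higher past 2-fold went from 1 to 0 with the GC trend removed and at 3-fold, and to 2 at 1.5-fold. The number lower went from 2 to 1 without a pseudocount, since Gzme then has no value, and to 0 when a normalized count of 10 was asked of both libraries, which removes Gzmd and Gzme. Over all genes, 1147 were higher and 1418 lower, and 577 and 773 with a normalized count of 10 in at least one library. Without length, Gzmb ranked 426 and 346. Its share of the granzyme total was 99.1% and 98.99% per kb of coding length and 99.1% and 98.95% by counts. At most 2 mismatches in place of none took the shared windows of Gzmd from 0.231% to 29.1%. The summed granzymes had a log2 fold change of -1.94 without Gzmc, chosen after seeing the data, against -0.45. Depth limits every member under about 50 reads.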
